A study of Mus musculus with 6 samples.

Results

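The urothelial differentiation transcription factors described here are 10 genes out of the 14338 genes compared: Pparg, Ppargc1a, Grhl3, Elf3, Klf5, Gata3, Foxa1, Trp63, Ehf and Zfp750. They were taken by name, matched by Ensembl ID, and all 10 were listed in every count table. Their mRNA was measured in single cells of the mucosal layer of mouse bladder, in 6 libraries of a droplet-based 3′ assay. Levels rest on UMIs (unique molecular identifiers), 1 for each transcript captured. All mice were wild-type C57BL/6 animals aged 8 weeks. The 2 healthy libraries came from uninjured bladders. The 2 acute libraries came from bladders taken 48 h after injury with CPP (cyclophosphamide), an alkylating drug whose breakdown product damages the urothelium from the urine side. The 2 chronic libraries followed 4 rounds of CPP over 11 days. Several mice entered each condition, and no gene was modified in any group.

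The urothelium lines the bladder in layers. Basal cells sit on the basement membrane, intermediate cells lie above them, and superficial (umbrella) cells face the urine and carry the uroplakin plaques of the permeability barrier. PPARG is a nuclear receptor that binds DNA together with retinoid X receptors. With GATA3, FOXA1 and the ETS factor ELF3 it is known as a driver of luminal differentiation of urothelial cells. PPARGC1A is a coactivator of PPARG and not a DNA-binding factor itself. GRHL3, KLF5, EHF and ZFP750 are known as regulators of differentiation and barrier genes in several stratified epithelia, and TRP63 (p63) as the factor that marks and maintains basal epithelial cells.

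Positions are those of the GENCODE annotation on the mouse build GRCm38 (mm10). Pparg (ENSMUSG00000000440) lies at chr6:115360951-115490399 on the plus strand, and Ppargc1a (ENSMUSG00000029167) at chr5:51454250-51567726 on the minus strand. Grhl3 (ENSMUSG00000037188) lies at chr4:135541888-135573630 on the minus strand, and Elf3 (ENSMUSG00000003051) at chr1:135253575-135258568 on the minus strand. Klf5 (ENSMUSG00000005148) lies at chr14:99298691-99315036 on the plus strand, and Gata3 (ENSMUSG00000015619) at chr2:9857078-9890034 on the minus strand. Foxa1 (ENSMUSG00000035451) lies at chr12:57540628-57546916 on the minus strand, and Trp63 (ENSMUSG00000022510) at chr16:25683763-25892102 on the plus strand. Ehf (ENSMUSG00000012350) lies at chr2:103263433-103303278 on the minus strand, and Zfp750 (ENSMUSG00000039238) at chr11:121510978-121519333 on the minus strand. All 10 are protein-coding. UMIs were counted over all transcripts of a gene, so isoforms such as the TA and ΔN forms of p63 were not told apart.

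Promoters of 300 bases, from 250 before to 50 after the transcription start, were found in the RefSeq table (GRCm38.p6) for 6 of the 10 genes. Pparg had 3 starts, and Ppargc1a, Grhl3, Elf3, Gata3 and Foxa1 had 1 each. Klf5, Trp63, Ehf and Zfp750 are named only. The windows were searched on both strands for letters known for the families described here. These were AGATAA for the family of Gata3, TGTTTAC for forkhead factors such as Foxa1, and AGGTCA as the half-site of nuclear receptors such as PPARG. The others were ACCGGT for grainyhead factors, CCGGAAG for ETS factors, GGGCGTG for Krüppel-like factors and ACATGT as a half-site of p63. The nuclear receptor half-site was found in the first and the second Pparg promoter, starting 28 and 9 bases before the transcription start. A forkhead match, read on the opposite strand, lay in the Foxa1 promoter at 141 bases before the start. Of all 32851 promoters in the table, 16.3% hold the half-site and 3.65% the forkhead letters. The shares were 11.2% for the letters of the Gata3 family, 2.33% for grainyhead, 8.86% for ETS, 8.44% for Krüppel-like factors and 5.28% for p63. The 3 promoters with a match are shown with that of Grhl3, which had the largest rise from basal to superficial cells, and that of Ppargc1a, the coactivator that moved against Pparg. Capitals mark the matched letters, and each run reads 5′ to 3′ along the strand of the gene. No matches overlapped, and the other windows held none of the letters.
Pparg, first start, chr6:115360894-115361193, plus strand: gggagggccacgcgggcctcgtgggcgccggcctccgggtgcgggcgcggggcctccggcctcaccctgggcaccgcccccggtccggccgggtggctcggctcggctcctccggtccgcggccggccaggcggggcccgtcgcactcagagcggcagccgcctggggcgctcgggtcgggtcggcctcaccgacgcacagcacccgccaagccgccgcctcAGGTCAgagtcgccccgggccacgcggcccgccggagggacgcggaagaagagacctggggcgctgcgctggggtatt
Pparg, second start, chr6:115362099-115362398, plus strand: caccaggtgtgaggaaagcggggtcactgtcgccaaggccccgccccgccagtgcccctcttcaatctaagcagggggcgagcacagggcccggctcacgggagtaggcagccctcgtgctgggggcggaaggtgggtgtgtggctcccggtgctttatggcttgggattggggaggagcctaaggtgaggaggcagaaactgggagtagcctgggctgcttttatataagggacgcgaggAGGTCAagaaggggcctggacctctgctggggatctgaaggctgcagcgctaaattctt
Foxa1, chr12:57546062-57546361, minus strand: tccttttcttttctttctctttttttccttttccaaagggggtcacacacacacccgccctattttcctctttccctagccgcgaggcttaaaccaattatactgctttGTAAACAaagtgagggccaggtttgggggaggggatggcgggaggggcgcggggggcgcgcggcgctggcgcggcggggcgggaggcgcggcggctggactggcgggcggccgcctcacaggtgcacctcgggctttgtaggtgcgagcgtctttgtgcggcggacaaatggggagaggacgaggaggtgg
Grhl3, chr4:135573583-135573882, minus strand: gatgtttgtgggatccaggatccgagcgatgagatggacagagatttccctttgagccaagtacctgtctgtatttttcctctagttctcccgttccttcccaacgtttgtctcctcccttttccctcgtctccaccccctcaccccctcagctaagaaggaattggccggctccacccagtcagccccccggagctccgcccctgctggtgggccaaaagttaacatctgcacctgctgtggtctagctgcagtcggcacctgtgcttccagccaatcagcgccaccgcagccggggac
Ppargc1a, chr5:51567676-51567975, minus strand: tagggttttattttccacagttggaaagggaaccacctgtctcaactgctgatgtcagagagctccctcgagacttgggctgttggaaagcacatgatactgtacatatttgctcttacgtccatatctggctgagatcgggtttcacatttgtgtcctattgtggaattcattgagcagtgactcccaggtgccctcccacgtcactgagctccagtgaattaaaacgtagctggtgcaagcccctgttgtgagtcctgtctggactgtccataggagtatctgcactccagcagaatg
The G and C content was 80.3% in the first Pparg window, 62.7% in the second and 40.3% in the third, whose start lies further downstream. It was 62.3% for Foxa1, 58.3% for Grhl3 and 48.7% for Ppargc1a.

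Of 56629 barcodes, 50070 cells were kept, and 37593 of these were urothelial. Layers were set by other genes, since the 10 factors and the other listed genes were kept out of clustering. Superficial sub-clusters were set by Krt20, Upk1a, Upk1b, Upk2, Upk3a and Acer2. Of the other cells, those were basal whose score of Krt5, Krt14, Krt15 and Itga6 was above their luminal score. The luminal score used Upk1a, Upk1b, Upk2, Upk3a, Krt8, Krt18, Krt19 and Krt20. There were 5043 basal, 25896 intermediate and 2488 superficial non-cycling cells, and 4166 urothelial cells were cycling. The healthy superficial class held only 161 and 174 cells. Basal and intermediate cells formed a continuum, with 6.17% of them within 0.1 of the boundary in marker score. Counted over all genes listed, the median depth of a library was 5530 to 9138 UMIs per cell. It was highest in healthy replicate 1, acute replicate 1 and chronic replicate 2. Each pair of libraries shared 36 to 229 barcodes. The fewest genes were listed for healthy replicate 1 (15213) and acute replicate 1 (15065). Levels are given as CPM, the UMIs of a gene per 1000000 UMIs of the 14338 genes compared, over the cells in a class and library. Differences are log2 fold changes ± SE from edgeR (quasi-likelihood test), with the library as a block between classes. The SE was derived as the absolute log2 fold change divided by the square root of the F statistic of that test. Calls were made at a Benjamini-Hochberg adjusted p below 0.05 over all genes tested. Between classes the p-values measure how far the difference within a library varied over these libraries. Between conditions they measure the spread between libraries of the same condition.

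All 10 genes were higher in urothelial than in mesenchymal cells of the same libraries. The call was made for 10 of 10 (edgeR), where 70.3% of all genes were called, 38.2% higher and 32.1% lower. Pparg was at 65.0 to 93.1 CPM (median 80.4) in urothelial and 11.1 to 35.5 CPM (median 18.4) in mesenchymal cells. Gata3 was at 346 to 487 CPM (median 383) against 20.4 to 108 CPM (median 36.9), and Klf5 at 220.0 to 491 CPM (median 270.0) against 18.7 to 50.3 CPM (median 27.8). The lowest urothelial library lay above the highest mesenchymal one for each of these 3. The log2 difference ran from 2.06 ± 0.19 (edgeR adjusted p = 2.71e-06) for Pparg to 4.04 ± 0.33 (edgeR adjusted p = 9.49e-07) for Ppargc1a. Its median was 2.97 over the 10 genes and 0.11 over all genes tested. Droplets also capture free RNA, so the mesenchymal level serves below as a background. The summed level of 6 mesenchymal markers was 205 to 883 CPM in urothelial and 31370 to 54754 CPM in mesenchymal cells. In superficial cells every factor but Trp63 lay above its mesenchymal level in 6 of 6 libraries. Trp63 did so in 5 of 6, with 56.8 CPM in superficial and 85.6 CPM in mesenchymal cells of chronic replicate 2. That mesenchymal class held 123 cells. The median ratio of the superficial to the mesenchymal level of Trp63 over the libraries was 2.09. That the factors lay above the background holds against mesenchymal cells and not against every other class. In the chronic libraries Elf3 had a mean of 221 CPM in endothelial cells (25 and 26 cells) and 182 CPM in non-cycling superficial cells. Pparg went the other way there, with means of 54.8 and 104 CPM.

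**Figure D1:**
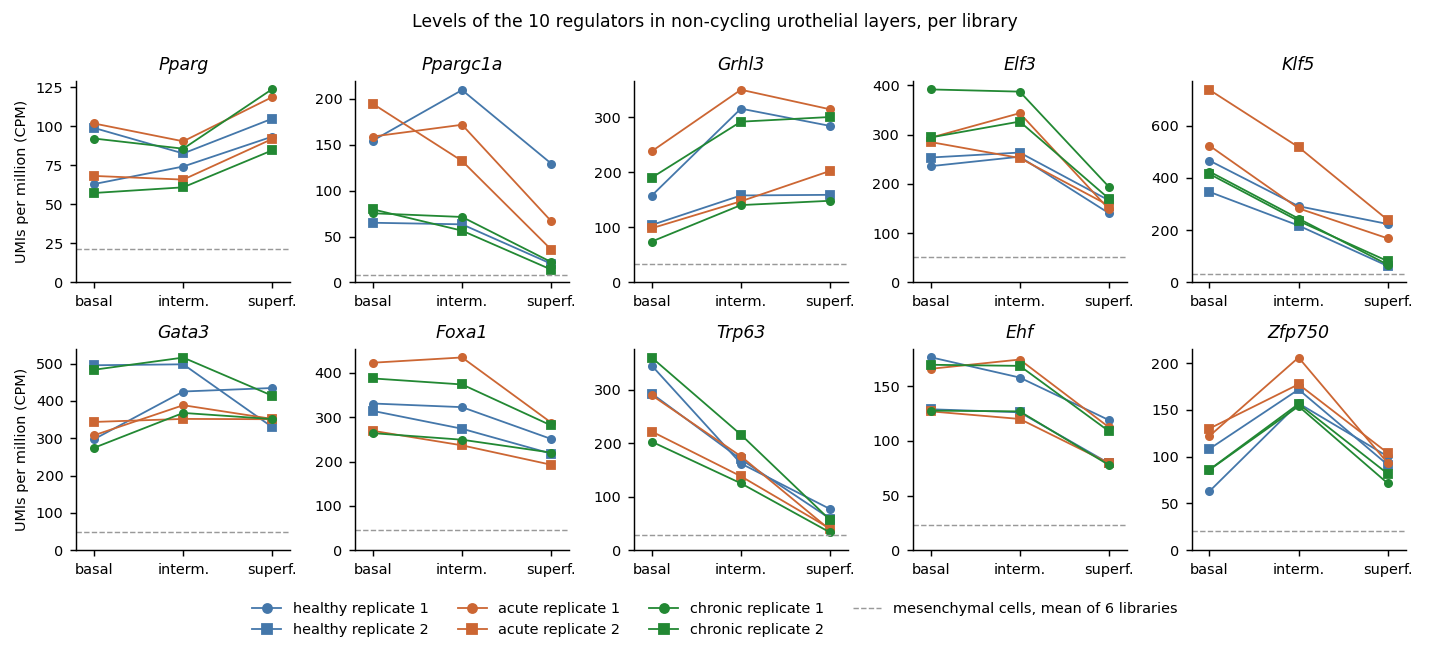
Level of each of the 10 genes (CPM, linear axis from 0) in non-cycling basal, intermediate and superficial cells, with 1 line per library and a dashed line at the mean of mesenchymal cells over 6 libraries. Trp63 and Klf5 fell from basal to superficial cells in all 6 libraries, Grhl3 and Pparg were higher in superficial than in basal cells, and Zfp750 was highest in intermediate cells.

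From basal to superficial cells the factors did not move together. Grhl3 and Pparg rose, while Trp63, Klf5, Ppargc1a, Elf3, Ehf and Foxa1 fell. Gata3 and Zfp750 did not pass the test. Thus 2 of 10 were higher and 6 lower in superficial than in basal cells (edgeR), in a comparison that called 58.8% of all genes, 29.8% higher and 29.0% lower. The median log2 difference was -0.38 over the 10 genes and 0.010 over all genes tested. From basal to intermediate cells 6 of 10 were called, 4 higher and 2 lower, where 42.7% of all genes were called (21.0% higher, 21.7% lower). From intermediate to superficial cells 8 of 10 were called, 1 higher and 7 lower, where 51.9% of all genes were called and 27.9% were lower. The shares of the 10 genes were not tested against those of all genes.

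The basal factor Trp63 was at 203 to 361 CPM (median 292) in basal, 125 to 216 CPM (median 166) in intermediate and 33.4 to 77.1 CPM (median 48.7) in superficial cells. The level fell at each step in all 6 libraries, and the ranges of basal and superficial cells did not overlap. In the first step Trp63 fell by 0.71 ± 0.051 on the log2 scale (edgeR adjusted p = 2.22e-10). In the second step it fell by 1.71 ± 0.10 on the log2 scale (edgeR adjusted p = 2.30e-12). Klf5, a Krüppel-like factor of proliferating epithelial cells, was at 346 to 736 CPM (median 445) in basal, 217 to 517 CPM (median 264) in intermediate and 62.9 to 239 CPM (median 125) in superficial cells. Every library was highest in basal and lowest in superficial cells, and the ranges of these layers did not overlap, while neighbouring layers overlapped. Acute replicate 2 was the highest library in each layer. From basal to superficial cells Klf5 fell by 1.77 ± 0.15 on the log2 scale (edgeR adjusted p = 2.09e-09), and Trp63 fell by 2.36 ± 0.10 on the log2 scale (edgeR adjusted p = 6.51e-14).

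The receptor Pparg and its coactivator Ppargc1a moved in opposite directions. Pparg was at 57.3 to 102 CPM (median 80.2) in basal, 60.9 to 90.4 CPM (median 78.4) in intermediate and 84.6 to 124 CPM (median 99.1) in superficial cells. Superficial cells were above intermediate cells in 6 of 6 libraries, and the gene rose by 0.48 ± 0.064 on the log2 scale (edgeR adjusted p = 1.20e-06). Between intermediate and basal cells the log2 difference of Pparg was 0.020 ± 0.064 (edgeR adjusted p = 0.842). Ppargc1a was at 65.1 to 195 CPM (median 117) in basal, 56.4 to 209.8 CPM (median 102) in intermediate and 14.0 to 129.6 CPM (median 29.0) in superficial cells. The ranges overlapped between the layers, with healthy replicate 1, acute replicate 1 and acute replicate 2 above the other 3 libraries in each layer. Within libraries Ppargc1a fell by 1.45 ± 0.12 on the log2 scale (edgeR adjusted p = 5.86e-10) from intermediate to superficial cells. Its log2 difference between intermediate and basal cells was -0.0091 ± 0.092 (edgeR adjusted p = 0.955).

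Grhl3, a grainyhead factor of epithelial barrier formation, and Zfp750, a zinc finger factor of late epidermal differentiation, had the largest rises from basal to intermediate cells among the 10 genes. Grhl3 was at 74.3 to 238 CPM (median 131) in basal, 141 to 350.1 CPM (median 225) in intermediate and 148 to 315 CPM (median 244) in superficial cells. The intermediate level was above the basal level in every library, and Grhl3 rose by 0.77 ± 0.058 on the log2 scale (edgeR adjusted p = 5.69e-10). In the second step its log2 difference was 0.10 ± 0.073 (edgeR adjusted p = 0.284). Zfp750 was at 62.99 to 130.1 CPM (median 97.2) in basal, 154 to 206 CPM (median 164) in intermediate and 71.5 to 104 CPM (median 92.2) in superficial cells. The lowest intermediate library lay above the highest basal and the highest superficial library. Zfp750 rose by 0.86 ± 0.075 on the log2 scale (edgeR adjusted p = 4.52e-09) in the first step. It fell by 0.88 ± 0.074 on the log2 scale (edgeR adjusted p = 9.01e-10) in the second. Superficial and basal cells differed by 0.044 ± 0.12 (edgeR adjusted p = 0.770) on the log2 scale. In CPM superficial cells were lower than basal cells in 5 of 6 libraries, all but healthy replicate 1.

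Of the luminal factors, Gata3 rose in the first step, and Foxa1 and Elf3 fell in the second. Gata3 was at 274 to 495 CPM (median 326) in basal, 352 to 516 CPM (median 407) in intermediate and 329 to 434 CPM (median 351) in superficial cells. The ranges overlapped, and Gata3 rose by 0.30 ± 0.059 on the log2 scale (edgeR adjusted p = 2.44e-04) in the first step. The rise was uneven between libraries. In log2 CPM it was 0.52, 0.34 and 0.42 in replicate 1 of the healthy, acute and chronic libraries. In replicate 2 of these it was 0.0073, 0.034 and 0.094. The second step of Gata3 was -0.13 ± 0.072 (edgeR adjusted p = 0.132) on the log2 scale. Foxa1, a forkhead factor that opens chromatin, was at 264 to 423 CPM (median 322) in basal, 236 to 435 CPM (median 298) in intermediate and 193 to 288 CPM (median 235) in superficial cells. The ranges overlapped, with a log2 difference of -0.0061 ± 0.044 (edgeR adjusted p = 0.934) in the first step. In the second step Foxa1 fell by 0.32 ± 0.063 on the log2 scale (edgeR adjusted p = 1.86e-04).

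Elf3 was at 236 to 392 CPM (median 289) in basal, 252 to 387 CPM (median 295) in intermediate and 141 to 194 CPM (median 161) in superficial cells. In the first step it rose by 0.14 ± 0.049 on the log2 scale (edgeR adjusted p = 0.0246), with a higher CPM in 4 of 6 libraries. This call did not hold without acute replicate 1, where the log2 difference was 0.11 (edgeR adjusted p = 0.129), or without chronic replicate 2, where it was 0.12 (edgeR adjusted p = 0.0899). In the second step Elf3 fell by 0.85 ± 0.073 on the log2 scale (edgeR adjusted p = 1.08e-09), with every superficial library below every intermediate one. Ehf, an ETS factor like Elf3, was at 127 to 177 CPM (median 148) in basal, 120.1 to 175 CPM (median 143) in intermediate and 78.0 to 119 CPM (median 94.3) in superficial cells. Its log2 difference was 0.041 ± 0.046 (edgeR adjusted p = 0.507) in the first step. In the second Ehf fell by 0.56 ± 0.066 on the log2 scale (edgeR adjusted p = 2.09e-07).

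**Figure D2:**
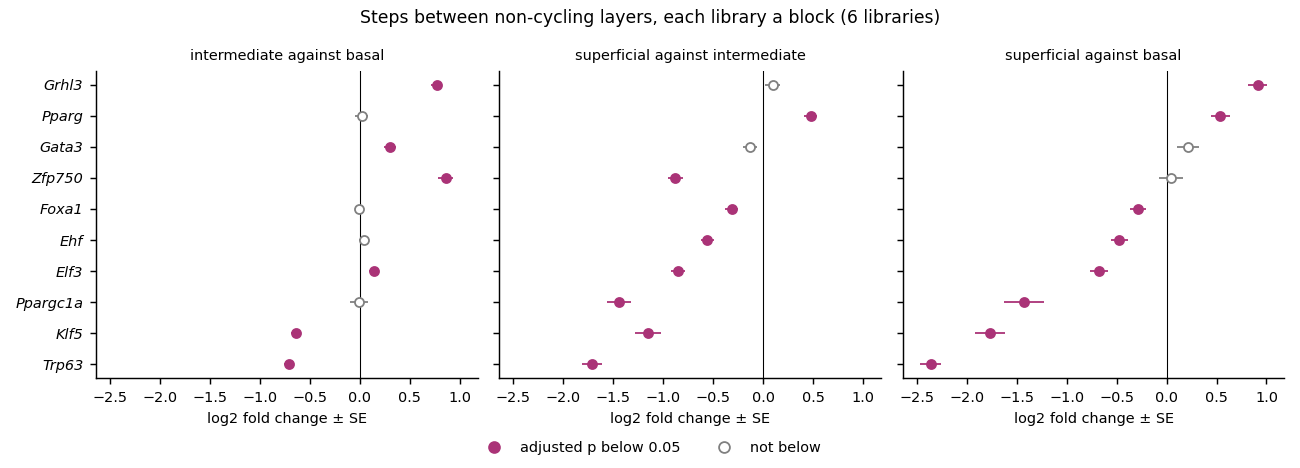
Log2 fold change ± SE from edgeR (x axis) of each gene over 6 libraries, in 3 panels for intermediate against basal, superficial against intermediate and superficial against basal cells, filled where the adjusted p is below 0.05. Zfp750 is above 0 in the first panel and below 0 in the second, Pparg has its rise in the second, and Trp63 and Klf5 are below 0 in all 3.

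Shares of cells with at least 1 UMI were compared after each cell was thinned to 2000 UMIs of the genes compared. Counted over these genes only, the median depth was 2696 to 4525 UMIs in basal and 3783 to 5471 in intermediate cells. It was 6792 to 11448 in superficial and 1960.5 to 3632.5 in mesenchymal cells. Shallower cells were left out (113 basal, 709 intermediate, 12 superficial and 2783 mesenchymal cells). After thinning, Trp63 was seen in 41.0% ± 6.50 of basal, 28.3% ± 4.46 of intermediate and 9.45% ± 2.52 of superficial cells, against 4.87% ± 3.84 of mesenchymal cells (SD, n = 6). The unthinned means were 61.1%, 52.7%, 35.6% and 6.23%. Over the libraries the thinned superficial share of Trp63 ran from 6.19% to 13.0% and the mesenchymal share from 1.92% to 12.2%. The ranges thus overlapped, with the higher mean in superficial cells. Klf5 was seen in 57.4% ± 9.84 of basal, 42.4% ± 10.6 of intermediate and 22.6% ± 12.3 of superficial cells, against 5.46% ± 1.82 of mesenchymal cells, and unthinned in 74.5%, 69.3%, 58.4% and 7.49%. Grhl3 went the other way, with 21.0% ± 8.38 of basal, 33.0% ± 10.3 of intermediate and 37.0% ± 10.3 of superficial cells, against 5.73% ± 2.96 of mesenchymal cells. Its unthinned means were 34.5%, 57.6%, 79.5% and 8.10%. Pparg was seen in 14.8% ± 3.46 of basal, 14.1% ± 2.00 of intermediate and 17.8% ± 3.14 of superficial cells, against 3.90% ± 1.77 of mesenchymal cells, and unthinned in 25.9%, 31.2%, 57.5% and 5.70%. The rise of Pparg in superficial cells was small on this scale. Gata3 was seen in 47.8% ± 9.55 of basal, 54.2% ± 5.70 of intermediate and 50.1% ± 5.09 of superficial cells, against 8.19% ± 5.92 of mesenchymal cells, and unthinned in 67.3%, 79.5%, 90.5% and 11.0%.

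The other genes of the PPARG pathway were followed as partners and as targets. The partners were retinoid X receptors, the related receptors Ppara and Ppard, coactivators and corepressors. In superficial against basal cells 0 of 14 were higher and 12 were lower (edgeR), where 29.8% of all genes were higher and 29.0% lower. The median log2 difference was -0.51 for the list and 0.010 over all genes tested. Ppara, the receptor that drives fatty acid oxidation, was at 11.5 to 19.3 CPM in basal and 2.49 to 6.44 CPM in superficial cells. The ranges did not overlap, and Ppara fell by 1.43 ± 0.19 on the log2 scale (edgeR adjusted p = 1.03e-06).

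PPAR target genes were called in both directions. In superficial against basal cells 7 of 21 were higher and 12 were lower (29.8% and 29.0% of all genes), with a median log2 difference of -0.42 (0.010 over all genes). In intermediate against basal cells 7 of 21 were higher and 8 were lower (21.0% and 21.7% of all genes), with a median of -0.092. The share that was higher in superficial cells was near that of all genes. Fabp4, the fatty acid binding protein of adipocytes and a classic PPARG target, was at 62.1 to 565 CPM in basal, 102 to 751 CPM in intermediate and 1000.3 to 2989.9 CPM in superficial cells. The lowest superficial library lay above the highest basal one, and Fabp4 rose by 3.18 ± 0.20 on the log2 scale (edgeR adjusted p = 2.27e-11). Endothelial cells also express Fabp4, and the summed endothelial markers were at 1.05 to 8.61 CPM in basal and 2.11 to 7.40 CPM in superficial cells. Fabp5, the epidermal relative of Fabp4, was at 175 to 417 CPM in basal and 691 to 1128 CPM in superficial cells. It too had no overlap and rose by 1.91 ± 0.12 on the log2 scale (edgeR adjusted p = 3.02e-11). Pdk4, an inhibitor of pyruvate dehydrogenase, was at 78.5 to 224 CPM in basal and 19.6 to 42.5 CPM in superficial cells, and fell by 1.99 ± 0.13 on the log2 scale (edgeR adjusted p = 4.14e-11).

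**Figure D3:**
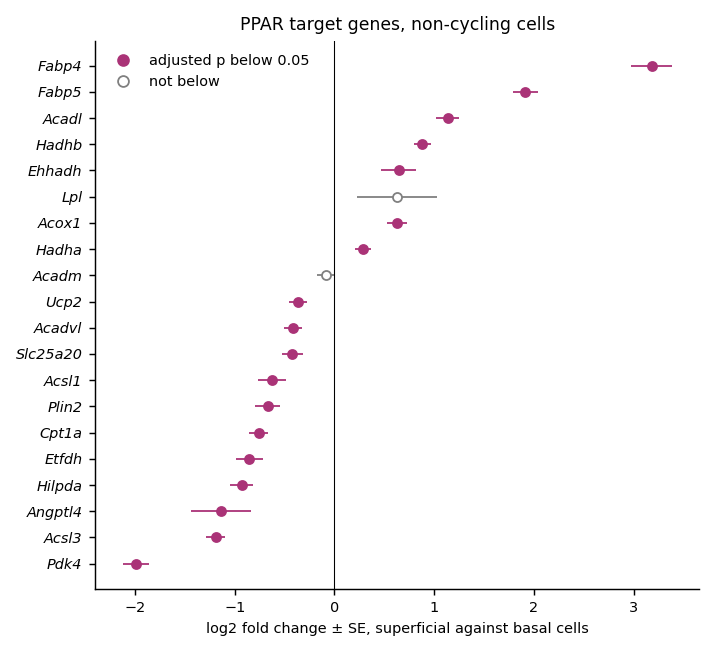
Log2 fold change ± SE from edgeR (x axis) of 20 PPAR target genes, superficial against basal non-cycling cells over 6 libraries, filled where the adjusted p is below 0.05. Fabp4 and Fabp5 lie furthest to the right, and Pdk4 lies furthest to the left of the genes plotted.

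Most p63 target genes of basal epithelium fell along with Trp63. The basal class was itself set by basal markers, and Trp63 and this list are known from basal epithelium. Their fall is thus not independent of how the layers were set. In superficial against basal cells 1 of 18 was higher and 13 were lower (29.8% and 29.0% of all genes), with a median log2 difference of -1.85 (0.010 over all genes). In intermediate against basal cells 1 of 18 was higher and 15 were lower (21.0% and 21.7% of all genes), with a median of -0.81. Col17a1, a hemidesmosome collagen, was at 60.7 to 97.4 CPM in basal and 1.04 to 5.55 CPM in superficial cells. The ranges lay far apart, and Col17a1 fell by 4.90 ± 0.20 on the log2 scale (edgeR adjusted p = 1.55e-14). Snai2, a zinc finger repressor, was at 9.42 to 64.2 CPM in basal cells and at most 2.63 CPM in superficial cells, where 1 library was at 0. Its fitted log2 difference was -4.11 ± 0.21 (edgeR adjusted p = 8.74e-13).

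Of the barrier genes known downstream of GRHL3, KLF and ZFP750 factors in epithelia, 7 of 12 were higher and 4 were lower in superficial than in basal cells (29.8% and 29.0% of all genes). The median log2 difference was 0.27, against 0.010 over all genes. The share that was lower was near that of all genes. In intermediate against basal cells 7 of 14 were higher and 1 was lower (21.0% and 21.7% of all genes), with a median of 0.30. In superficial against intermediate cells 4 of 14 were higher and 4 were lower, where 51.9% of all genes were called, with a median of -0.28 against -0.026 over all genes. The cornified envelope precursor Sprr1a was at 4764 to 7931 CPM in basal and 11108 to 23231 CPM in superficial cells, and rose by 1.57 ± 0.088 on the log2 scale (edgeR adjusted p = 3.11e-12). Evpl (envoplakin) was at 55.3 to 112 CPM in basal and 129 to 191 CPM in superficial cells, and rose by 1.20 ± 0.10 on the log2 scale (edgeR adjusted p = 1.69e-09). The 2 genes were above their basal range in all superficial libraries. The tight junction claudin Cldn4 was at 757 to 1935 CPM in basal and 427 to 1057 CPM in superficial cells, overlapping ranges, and fell by 0.66 ± 0.084 on the log2 scale (edgeR adjusted p = 8.11e-07). Cldn7 was at 290.2 to 619.9 CPM in basal and 199 to 319.6 CPM in superficial cells, and fell by 0.55 ± 0.11 on the log2 scale (edgeR adjusted p = 2.27e-04).

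Of the other epithelial transcription factors, 3 of 24 were higher and 18 were lower in superficial than in basal cells (29.8% and 29.0% of all genes). The median log2 difference was -0.90, against 0.010 over all genes. Klf4, a Krüppel-like factor of postmitotic epithelial cells, was at 566 to 1009 CPM in basal and 47.7 to 166 CPM in superficial cells, and fell by 3.08 ± 0.12 on the log2 scale (edgeR adjusted p = 1.04e-14). Cebpb was at 636 to 1073 CPM in basal and 85.8 to 153 CPM in superficial cells, and fell by 2.45 ± 0.10 on the log2 scale (edgeR adjusted p = 4.47e-14). Both were separated between the layers without overlap. The T-box factor Tbx2 rose by 0.43 ± 0.091 on the log2 scale (edgeR adjusted p = 4.07e-04). The Hippo pathway factor Tead1 rose by 0.41 ± 0.11 on the log2 scale (edgeR adjusted p = 0.00232). Among markers of other cells, the summed mural markers were at 43.2 to 79.0 CPM in basal and 231 to 541 CPM in superficial cells. Most of this was Rgs5, with a median of 36.0 CPM in basal and 425 CPM in superficial cells. The defining mural markers Myh11 and Des had medians of 0.659 and 0.596 CPM in superficial cells, against 967 and 337 CPM in mural cells.

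Likeness between genes was measured over the 18 sums of 3 layers in 6 libraries, on log2 levels with the mean of each library taken away. Elf3 and Ehf were close to parallel (Pearson r = 0.96), as were Trp63 and Klf5 (r = 0.94). Pparg ran against Trp63 (r = -0.92) and Ppargc1a (r = -0.87), and with Grhl3 (r = 0.65). The sums share libraries and the same layer steps, so high values are common, and no test was made. Of the 6029 genes with a mean of at least 20 CPM, those most like Trp63 were Anxa8 (r = 1.00), Plpp3 and Pak6. The nearest to Klf5 were Gata6 (r = 0.98), Tab2 and Mllt10. Pparg was nearest to Nme4 (r = 0.96), Emc8 and 2410131K14Rik, and Ppargc1a to Plk2 (r = 0.98), Rai14 and Actg1. Grhl3 was nearest to Fam83f (r = 0.98), Mgrn1 and Uqcr10, and Zfp750 to Fau (r = 0.97), Sod1 and Defb1. The nearest genes to Elf3 were Tgfb1 (r = 0.98), Akap13 and Cldn4, the last a barrier gene named above. Ehf was nearest to Mfap3l (r = 0.99), Mgst2 and Wfdc2. Foxa1 was nearest to Pdlim7 (r = 0.96), Zfp467 and Ino80b.

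Cycling cells were compared with the non-cycling cells of the same layer and library. In basal cells 6 of 10 factors were lower in cycling cells and none were higher (edgeR), where 21.1% of all genes were called, 10.9% higher and 10.1% lower. In intermediate cells 3 of 10 were lower, where 15.9% were called, 7.73% higher and 8.20% lower. In superficial cells 6 of 10 were lower and 2 higher, where 35.6% were called, 17.6% higher and 17.9% lower. The superficial comparison used the 4 injured libraries, because the healthy ones held only 14 and 13 cycling superficial cells. The median log2 difference of the 10 genes was -0.30, -0.17 and -0.19 in the 3 layers, against -0.047, -0.037 and -0.025 over all genes tested. The cycling state was set by a threshold on a score, with 1560 cells within 0.25 MADs of it.

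Grhl3 was lower in cycling cells of all 3 layers. It was at 65.9 to 163 CPM (median 95.0) in cycling and 74.3 to 238 CPM (median 131) in non-cycling basal cells. The ranges overlapped, but cycling cells were lower in 6 of 6 libraries in basal and in intermediate cells and in 4 of 4 in superficial cells. The log2 differences of Grhl3 were -0.52 ± 0.092 (edgeR adjusted p = 2.59e-05) in basal, -0.36 ± 0.065 (edgeR adjusted p = 8.63e-05) in intermediate and -0.37 ± 0.062 (edgeR adjusted p = 1.44e-05) in superficial cells. Zfp750 was at 23.8 to 91.2 CPM (median 74.6) in cycling and 62.99 to 130.1 CPM (median 97.2) in non-cycling basal cells, lower in 6 of 6 libraries. Its log2 differences were -0.62 ± 0.11 (edgeR adjusted p = 2.95e-05) in basal and -0.52 ± 0.094 (edgeR adjusted p = 1.07e-04) in intermediate cells. In superficial cells the log2 difference of Zfp750 was 0.083 ± 0.071 (edgeR adjusted p = 0.399). Gata3 was lower in cycling intermediate cells in 6 of 6 libraries, with a log2 difference of -0.20 ± 0.055 (edgeR adjusted p = 0.00887).

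In basal cells Elf3 and Ppargc1a were lower in cycling cells in 6 of 6 libraries. The log2 difference was -0.48 ± 0.080 (edgeR adjusted p = 9.40e-06) for Elf3 and -0.43 ± 0.10 (edgeR adjusted p = 8.73e-04) for Ppargc1a. Pparg was lower in 5 of 6 libraries, with a log2 difference of -0.38 ± 0.11 (edgeR adjusted p = 0.0122), and Foxa1 in 4 of 6, with -0.22 ± 0.076 (edgeR adjusted p = 0.0368). The calls for Pparg and Foxa1 did not hold without acute replicate 1 (edgeR adjusted p = 0.230 and 0.270) or without acute replicate 2 (edgeR adjusted p = 0.0917 and 0.0613). That for Foxa1 did not hold without either chronic library (edgeR adjusted p = 0.135 and 0.125). Klf5 and Trp63 showed no call here, with log2 differences of -0.018 ± 0.069 (edgeR adjusted p = 0.896) and -0.072 ± 0.076 (edgeR adjusted p = 0.556).

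**Figure D4:**
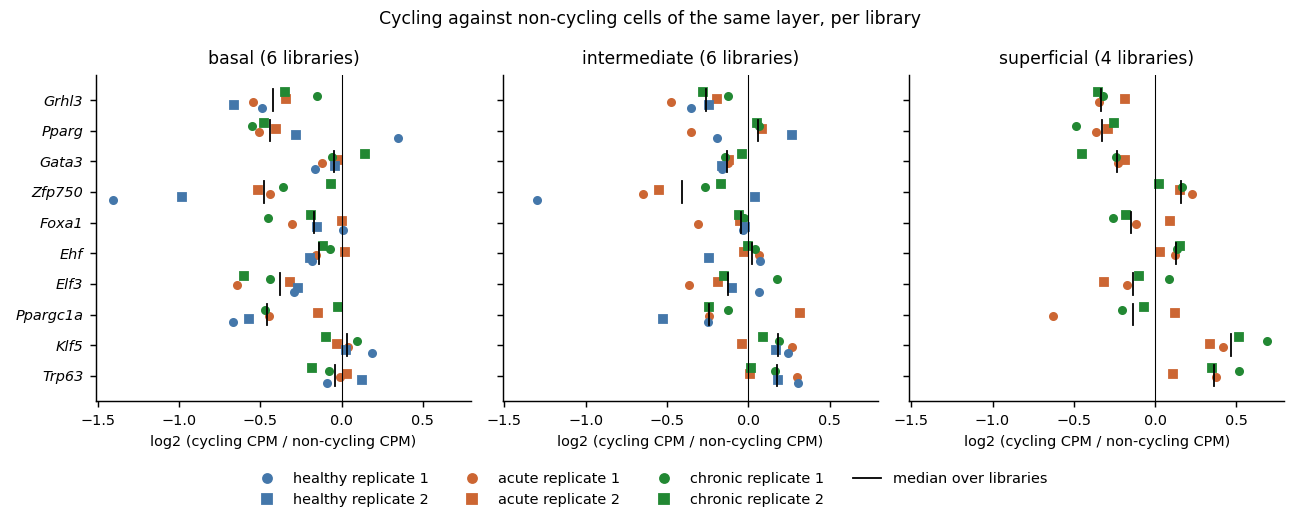
Log2 ratio of the CPM in cycling to that in non-cycling cells (x axis) for each gene, 1 point per library and a bar at the median, in the basal (6 libraries), intermediate (6) and superficial layer (4). Every point of Grhl3 lies below 0 in all 3 panels, and every point of Klf5 and Trp63 lies above 0 in the superficial panel.

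In superficial cells Klf5 and Trp63, which had the largest falls from basal to superficial cells among the 10 genes, were higher in cycling cells. Klf5 was at 225, 301, 109.8 and 116 CPM in cycling superficial cells of the 2 acute and the 2 chronic libraries. In non-cycling superficial cells of these libraries it was at 169, 239, 68.1 and 81.5 CPM. Cycling cells were higher in 4 of 4 libraries, with a log2 difference of 0.38 ± 0.070 (edgeR adjusted p = 5.34e-05). Trp63 was at 49.5, 43.8, 47.7 and 72.3 CPM in cycling and 38.3, 40.6, 33.4 and 56.8 CPM in non-cycling cells. It was higher in 4 of 4 libraries, with a log2 difference of 0.25 ± 0.090 (edgeR adjusted p = 0.0272). With a lower boundary for superficial sub-clusters, a marker z score above 0.5, sub-clusters of 3380 and 3238 cells were added. The differences of Klf5 and Trp63 then turned. The log2 difference was then -0.17 for Klf5 (edgeR adjusted p = 0.0634) and -0.78 for Trp63 (edgeR adjusted p = 3.43e-11). Pparg, Grhl3 and Foxa1 no longer passed there, with log2 differences of -0.16 (edgeR adjusted p = 0.105), -0.15 (edgeR adjusted p = 0.107) and -0.16 (edgeR adjusted p = 0.0574). Most cycling superficial cells came from 1 sub-cluster of 1086 cells, 88.5% of them cycling. Most non-cycling ones came from another, of 2721 cells with 9.85% cycling.

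The other 6 calls in superficial cells were falls. Pparg and Gata3 were lower in cycling cells in 4 of 4 libraries, with log2 differences of -0.42 ± 0.072 (edgeR adjusted p = 1.70e-05) and -0.34 ± 0.060 (edgeR adjusted p = 3.05e-05). Ppargc1a, Elf3 and Foxa1 were lower in 3 of 4, with -0.39 ± 0.11 (edgeR adjusted p = 0.00698), -0.20 ± 0.070 (edgeR adjusted p = 0.0235) and -0.18 ± 0.063 (edgeR adjusted p = 0.0279). Without acute replicate 1, 4 of the 8 calls held, those of Pparg, Grhl3, Klf5 and Gata3. The log2 difference of Ppargc1a was then -0.068 (edgeR adjusted p = 0.799). Without acute replicate 2 the call of Elf3 was lost (edgeR adjusted p = 0.182), and without chronic replicate 1 those of Foxa1 and Trp63 (edgeR adjusted p = 0.162 and 0.107). Without chronic replicate 2, 5 of the 8 held, and Elf3, Foxa1 and Trp63 did not (edgeR adjusted p = 0.0607, 0.130 and 0.0864). DESeq2 called 4 of the factors in this comparison, where edgeR called 8.

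Between the conditions no factor passed the test. In all urothelial cells 0 of 10 differed between acute and healthy libraries (edgeR), where 0.00724% of all genes were called. Likewise 0 of 10 differed between chronic and healthy and between acute and chronic libraries, where 0% of all genes were called. At an unadjusted p below 0.05 there were 0, 1 and 1 of the 10 genes, and 897, 1019 and 887 of 13814 genes. Within non-cycling basal, intermediate and superficial cells 0 of 10 passed in acute or in chronic against healthy libraries (edgeR), with 0% of all genes called in each. At an unadjusted p below 0.05 there were 1, 0 and 1 of 10 for acute libraries, and 251, 318 and 512 of all genes. For chronic libraries there were 0, 0 and 1 of 10, and 469, 627 and 586 of all genes. DESeq2 called 0 of the 10 in each of the 9 comparisons. Over all urothelial cells it called 277 of 13814 genes for acute against healthy, 130 for chronic against healthy and 43 for acute against chronic libraries. In basal, intermediate and superficial cells it called 8, 13 and 7 genes for acute and 11, 57 and 8 genes for chronic against healthy libraries. The makeup of the libraries also differed, with 453 to 727 non-cycling superficial cells in the injured libraries against 161 and 174 in the healthy ones. Basal cells were 4.63% (chronic replicate 1) to 26.5% (acute replicate 1) of the urothelial cells. Cycling cells were 4.65% (healthy replicate 1) to 25.8% (acute replicate 1) of them. Values over all urothelial cells include these differences.

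As a ratio of the highest to the lowest library over all urothelial cells, Ppargc1a had the widest spread among the factors, at 4.03. In all urothelial cells it was at 197 and 60.4 CPM in the healthy libraries, 124 and 120.4 CPM in the acute and 62.1 and 48.8 CPM in the chronic libraries. Healthy replicate 1 was the highest of the 6, and healthy replicate 2 lay between the chronic libraries. The log2 difference of chronic from healthy libraries was -1.18 ± 0.48 (edgeR adjusted p = 0.664), with an unadjusted p of 0.0434 that was not adjusted for the number of genes. In superficial cells Ppargc1a was at 129.6 and 20.4 CPM in the healthy libraries, 66.8 and 35.9 CPM in the acute and 22.2 and 14.0 CPM in the chronic libraries. Healthy replicate 2 again lay between the chronic libraries, and the log2 difference of chronic from healthy ones was -2.05 ± 0.64 (edgeR adjusted p = 0.894). When the libraries were clustered without integration, 1 urothelial sub-cluster with Ppargc1a among its 10 leading genes held 3951 cells. Of these, 2250 were from healthy replicate 1 and 1658 from acute replicate 1, the libraries with the fewest genes listed. Other urothelial sub-clusters without Ppargc1a among their leading genes also came mostly from few libraries. In 1 of 2638 cells, 1570 were from healthy replicate 1 and 1033 from acute replicate 1. In another of 3841 cells, 3657 were from healthy replicate 2. The part of library preparation in the level of Ppargc1a was not tested.

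Klf5 was at 309 and 233 CPM in the healthy libraries, 307 and 491 CPM in the acute and 222 and 220.0 CPM in the chronic libraries. Acute replicate 2 was the highest library, and acute replicate 1 lay between the healthy ones. The log2 difference was 0.86 ± 0.29 (edgeR adjusted p = 0.751) between acute and chronic libraries and 0.59 ± 0.29 (edgeR adjusted p = 0.866) between acute and healthy ones. In basal cells Klf5 was at 466 and 346 CPM in the healthy libraries, 523 and 736 CPM in the acute and 424 and 415 CPM in the chronic libraries. Both acute libraries lay above both healthy ones there, with a log2 difference of 0.70 ± 0.29 (edgeR adjusted p = 0.9997). Elf3 was at 245 and 255 CPM in the healthy libraries, 251 and 230.2 CPM in the acute and 355 and 286 CPM in the chronic libraries. The chronic pair lay above the other 4 libraries, with a log2 difference of 0.38 ± 0.20 (edgeR adjusted p = 0.702) from the healthy pair. Gata3 was at 409 and 487 CPM in the healthy libraries, 346 and 346 CPM in the acute and 358 and 484 CPM in the chronic libraries. The acute pair lay below the healthy pair, with a log2 difference of -0.36 ± 0.21 (edgeR adjusted p = 0.933). Here and below, the share of all genes whose pairs of libraries did not overlap was not counted. The separations are thus descriptions of these libraries only.

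**Figure D5:**
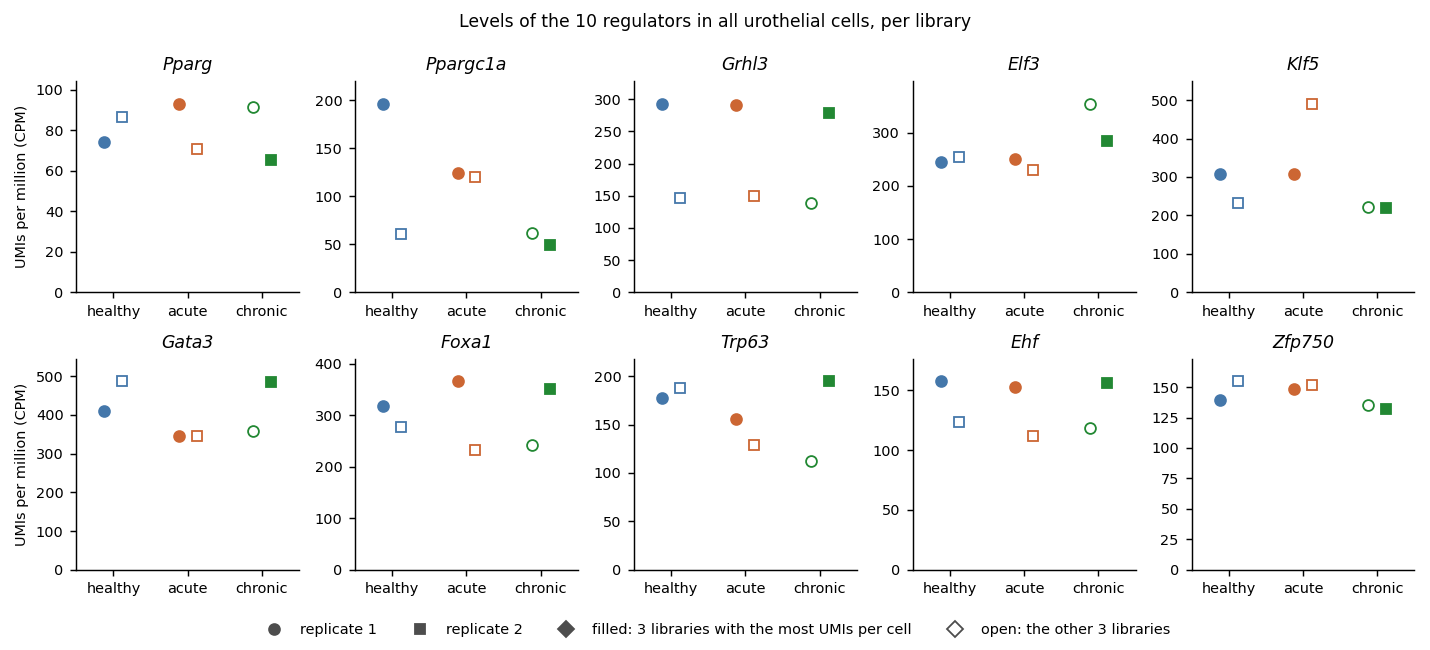
Level of each gene (CPM, linear axis from 0) over all urothelial cells in the 2 healthy, 2 acute and 2 chronic libraries, 1 point per library. Filled points are the 3 libraries with the highest median UMIs over all their cells, and open points the other 3. Healthy replicate 1 stands above the others for Ppargc1a, and the 3 deeper libraries lie above the other 3 for Grhl3, Foxa1 and Ehf.

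In superficial cells Trp63 was at 77.1 and 59.2 CPM in the healthy libraries, 38.3 and 40.6 CPM in the acute and 33.4 and 56.8 CPM in the chronic libraries. The healthy pair lay above the other 4 libraries. The log2 difference from healthy libraries was -0.79 ± 0.29 (edgeR adjusted p = 0.997) for acute and -0.61 ± 0.29 (edgeR adjusted p = 0.928) for chronic libraries. Pparg in superficial cells was at 93.4 and 105 CPM in the healthy libraries, 119 and 91.9 CPM in the acute and 124 and 84.6 CPM in the chronic libraries. The 3 pairs overlapped, and the log2 difference from healthy libraries was 0.076 ± 0.24 (edgeR adjusted p = 0.997) for acute and 0.049 ± 0.24 (edgeR adjusted p = 0.996) for chronic libraries. Zfp750 in basal cells was at 62.99 and 108 CPM in the healthy libraries, 122 and 130.1 CPM in the acute and 85.9 and 86.1 CPM in the chronic libraries. Both acute libraries were the highest, with a log2 difference of 0.60 ± 0.31 (edgeR adjusted p = 0.9997) from the healthy ones.

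Whether the step from basal to superficial cells differed after injury was tested in a joint model of both layers. No factor passed, 0 of 10 for acute and 0 of 10 for chronic against healthy libraries (edgeR). Of all genes 0.0429% were called for acute (0.00858% higher, 0.0343% lower) and 0.0858% for chronic libraries (0.0515% higher, 0.0343% lower). At an unadjusted p below 0.05 there were 3 and 2 of the 10, and 645 and 642 of 11660 genes. DESeq2 called 0 of the 10 in both, and 8 and 6 of 11660 genes. The step of Ppargc1a differed from that of healthy libraries by -1.10 ± 0.37 (edgeR adjusted p = 0.763) on the log2 scale for acute and -1.38 ± 0.41 (edgeR adjusted p = 0.496) for chronic libraries. With no filter on low counts both passed, at log2 differences of -1.07 (edgeR adjusted p = 0.0159) and -1.32 (edgeR adjusted p = 0.00289). Without healthy replicate 2 the healthy group is 1 library, healthy replicate 1, which is assumed to vary like the other groups. They then passed at -1.58 (edgeR adjusted p = 0.0479) and -1.87 (edgeR adjusted p = 0.0232), as did Klf5 in chronic libraries, at -1.42 (edgeR adjusted p = 0.0232). Without healthy replicate 1 none of these 3 passed, with log2 differences of -0.21 (edgeR adjusted p = 0.989) and -0.48 (edgeR adjusted p = 0.970) for Ppargc1a and -0.044 (edgeR adjusted p = 0.998) for Klf5 in chronic libraries. With 1 healthy library the calls thus differed with the library kept. In the healthy superficial cells Ppargc1a was at 129.6 and 20.4 CPM and Klf5 at 224 and 62.9 CPM, so the pair was far apart for both.

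The libraries were also compared by depth, taken as the median UMIs over all listed genes and all cells of a library. The 3 libraries with the highest medians form the deeper set. This need not be the order of depth in urothelial cells. Acute replicate 2, outside the deeper set, had 38461385 UMIs of the genes compared in 6128 urothelial cells. Acute replicate 1, inside it, had 36307052 such UMIs in 5791 urothelial cells. In all urothelial cells Grhl3 was at 293 and 147 CPM in the healthy libraries, 291 and 149.6 CPM in the acute and 138 and 279 CPM in the chronic libraries. The 3 libraries of the deeper set, 1 of each condition, lay above the other 3 with no overlap. Foxa1 was at 319 and 277 CPM in the healthy libraries, 366 and 232 CPM in the acute and 242 and 351 CPM in the chronic libraries. Ehf was at 158 and 124 CPM in the healthy libraries, 153 and 112 CPM in the acute and 119 and 156 CPM in the chronic libraries. These 3 of the 10 genes were higher in the deeper libraries without overlap in all urothelial cells and in the basal and intermediate layers. Of all genes of at least 10 CPM, 28.9%, 30.7% and 34.7% did not overlap between these sets (21.0%, 21.6% and 24.8% higher in the deeper one). The 3 of 10 without overlap were thus near the share of all genes in these cells. In superficial cells Gata3 joined them, making 4 of 10, where 21.7% of all genes did not overlap and 14.9% were higher. The shares of the 10 genes were not tested against these. With the depth set as a block, 0 of the 10 passed in any of the 9 comparisons between conditions (edgeR). Of all genes, 4 of 13814 passed for acute against healthy libraries in all urothelial cells, and 3 and 1 of 11221 for acute and chronic against healthy libraries in superficial cells. In the other 6 comparisons 0 genes passed. The part of depth in these levels was not tested.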

How the data were processed

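The libraries were prepared with a droplet-based 3′ kit and, per the labels, processed with Cell Ranger against mm10. The authors deposited raw, not normalized UMI counts per gene and cell in a separate table for each library. A cell was kept if it had more than 500 genes and less than 10% of its UMIs from mitochondrial genes. The table of healthy replicate 1 ends in 1 incomplete line. Genes were limited to those in all tables, 14450, of which 14338 were used, without mitochondrial and ribosomal genes. The members of the list and the other lists were chosen with earlier results of these data known.

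Doublets were scored with Scrublet in scanpy 1.11.5 and called at 0.8% per 1000 cells, since its automatic threshold called between 0 and 715 cells a library. A cluster of 1075 cells with over 33.3% called doublets and 962 cells with markers of 2 cell types were left out. Integration used Seurat 5.3.0 under R 4.3.3 (log-normalized counts, reciprocal principal components, 3000 features without 57 listed genes), where the paper used SCTransform, and clustered with leidenalg 0.10.2 (resolution 0.8, 20 neighbors, 30 components) under Python 3.11.15 (pandas 2.3.3, scipy 1.17.1, numpy 2.4.6). Cells were cycling above the median plus 2 MADs of an S or G2/M score. Sub-clusters with a superficial marker z score above 1 were superficial. Other cells were basal where their basal marker score was above their luminal marker score, and otherwise intermediate. These rules were settled after the clusters were seen. Sums of UMI counts over the cells of a class, where a library had 20 or more, were tested with edgeR 4.0.16 (TMM, filterByExpr, quasi-likelihood test, adjusted p below 0.05), DESeq2 1.42.0 being an alternative. Scripts were tested on simulated data. The paper states that the samples were processed in batches. Batch numbers, the mice of each library and the sex of the mice were not used. All 10 members were named, and from each other list, per comparison, the 2 largest rises and the 2 largest falls past the threshold with a mean of at least 10 CPM, of which those between superficial and basal cells are printed. A few genes that the rules name are not reported here. Alternatives were DESeq2, no low-count filter, no library block, stricter cell filters, doublets kept, no integration, other cycling and superficial thresholds, each replicate left out and a replicate block, and, added after the data were seen, a depth block.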

Additional observations from a re-analysis of the deposited data

Results flagged for a closer look

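In cycling against non-cycling cells of the same library, Zfp750 moved one way in basal cells and the other way in superficial cells. The median log2 difference in CPM was -0.476 in basal cells, with cycling cells lower in 6 of 6 libraries, and 0.16 in superficial cells, with cycling cells higher in 4 of 4 libraries. The difference between the layers was not tested, the superficial values came from the 4 injured libraries only, and the superficial change itself did not pass (edgeR adjusted p = 0.399).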

How the results depend on the processing

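Over all alternatives, 49 changes of the 10 genes between classes gave 651 values, of which 593 kept their direction and side of the threshold, 56 no longer passed and 2 turned, Klf5 to -0.17 and Trp63 to -0.78 in cycling against non-cycling superficial cells at a superficial z score above 0.5. The cause was not tested. Without the library block (no replicate block), which leaves the spread between libraries in the error, the genes called numbered 2 instead of 6 for intermediate against basal cells, 0 instead of 6 and 0 instead of 3 for cycling basal and intermediate cells, and 1 instead of 8 for cycling superficial cells. Without a low-count filter there were 6 for cycling intermediate cells and 1 and 1 for the acute and chronic differences of the layer step, with cycling at 4 MADs 5 for cycling intermediate cells, and with DESeq2 4 for cycling superficial cells. Leaving out a replicate gave 5 to 6 for intermediate against basal, 8 to 8 for superficial against intermediate and 8 to 9 for superficial against basal cells, 4 to 6, 3 to 4 and 4 to 8 for cycling basal, intermediate and superficial cells, and 0 to 1 and 0 to 2 for the layer step in acute and chronic libraries. Between conditions 0 of 10 passed under every alternative run.

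Over all genes, the calls without the library block were 1512 instead of 5480 for intermediate against basal, 3594 instead of 6658 for superficial against intermediate, and 380, 363 and 1276 instead of 2215, 2077 and 4124 for cycling basal, intermediate and superficial cells. DESeq2 called 1248 for cycling basal and 2382 for cycling superficial cells, cycling at 4 MADs gave 3211 for cycling intermediate cells, and without acute replicate 1 the counts were 1049 and 1366 for cycling basal and intermediate cells. DESeq2 called 277, 130 and 43 genes in all urothelial cells for acute against healthy, chronic against healthy and acute against chronic libraries, where edgeR called 1, 0 and 0, and the counts for the layer step ran from 3 to 40 (acute) and from 2 to 41 (chronic) instead of 5 and 10. The replicate numbers are not stated to pair the libraries. Deviations of same-numbered libraries correlated at 0.14 (healthy and acute), -0.30 (healthy and chronic) and -0.066 (acute and chronic) in all urothelial cells. In basal cells these values were 0.30, -0.25 and -0.18. With 2 libraries a group they cannot decide whether the libraries are paired. With a replicate block 0 of 10 genes passed in the 9 comparisons between conditions. The number of cells limits the healthy superficial class, with 161 and 174 cells, where Trp63 rests on 147 and 96 UMIs and Ppargc1a on 247 and 33.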

Other observations

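Outside the urothelium all 10 factors were higher in NK and T cells than in macrophages of the same library, in each of the 3 libraries with at least 20 NK and T cells. Of all genes with a mean of at least 10 CPM over both classes, 72.7% and 67.7% were also higher in NK and T cells in the healthy libraries and 70.6% in acute replicate 2, so the direction was the common one. Gata3, which is also known as a regulator of T lymphocytes and innate lymphoid cells, was at 273 and 359 CPM in the healthy libraries and 234 CPM in acute replicate 2, from 93, 66 and 101 UMIs in 75, 53 and 271 cells, the other libraries holding fewer than 20 such cells. In macrophages of the 6 libraries it was at 51.7 to 136 CPM (median 83.2), in mesenchymal cells at 20.4 to 108 CPM (median 36.9), and in endothelial cells of 5 libraries at 58.4 to 279.6 CPM (median 121). The NK and T levels lay above the macrophage and mesenchymal ranges, overlapped the endothelial range, and lay below or within the urothelial range of 346 to 487 CPM (median 383). Klf5 in NK and T cells was at 194 and 125 CPM in the healthy libraries and 216 CPM in acute replicate 2, against 43.2 to 92.7 CPM (median 57.9) in macrophages. The basal factor Trp63 was at 88.1 and 87.1 CPM in the healthy libraries and 48.7 CPM in acute replicate 2, against 14.6 to 63.7 CPM (median 30.6) in macrophages. The part of free RNA in these levels was not tested.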
